A study of Mus musculus with 50 samples.

Results

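The genes described here were 36 lysosomal hydrolases, cathepsins and lysosomal membrane and regulatory proteins, each found by its symbol among 24984 genes in the RNA-seq count tables of mouse kidney, liver and skin fibroblasts. Within them, 6 members (Ctsc, Ctsh, Ctss, Ctsw, Ctsz and Laptm5) were called leukocyte-type and the other 30 general. The term is the name of a list only, since Ctsh and Ctsz stood far above Ctsc, Ctss, Ctsw and Laptm5 in fibroblasts. The RNA libraries numbered 38 in 10 groups. Kidney and liver were taken from untreated C57BL/6 mice that were young (2.5 months) or old (23 to 25 months), with 4 libraries per tissue and age. Kidney and liver of C57BL/6 mice aged 20 to 21 months had been given either the solvent DMSO or an agent that the labels name only 3C, again with 4 libraries per group. Mouse skin fibroblasts at P9, a term the labels do not explain, had been kept in DMSO or 3C, with 3 libraries per group. ATAC-seq, which maps accessible chromatin, came from young and old kidney and liver with 3 libraries per group. Every tissue group therefore consists of bulk tissue from wild-type mice of a single strain, and the fibroblast groups are cultures with no stated number of donors. Labels give nothing beyond a number for most replicates, so p-values measure the spread between these libraries.

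Lysosomes are acid compartments in which proteins, glycans and lipids delivered by endocytosis, phagocytosis and autophagy are broken down. Most hydrolases are made as inactive precursors, tagged with mannose 6-phosphate in the Golgi and carried to the lysosome, where the proton pump keeps the lumen acid. Nearly all cells make the general enzymes, and transcription factors of the MiT/TFE family, including TFEB, drive many of their genes through the CLEAR element, an E-box. Phagocytes and antigen-presenting cells add further enzymes such as cathepsin S, which trims the invariant chain of MHC class II molecules.

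Promoter sequences are shown for 6 members, since the leukocyte-type and general genes can be compared there by eye. They are the 250 bases before the RefSeq start site on the GRCm38.p6 build, each read 5′ to 3′ along the strand of its gene. Ctss (cathepsin S), Ctsc (cathepsin C, which activates granule serine proteases) and Gusb (β-glucuronidase) were among the members with the smallest p-values with age, Ctsk (cathepsin K, the collagen-degrading enzyme of osteoclasts) is a close relative of Ctss, and Glb1 (β-galactosidase) and Lamp1 (a major glycoprotein of the lysosomal membrane) are general genes. Capitals mark matches, on either strand, to the E-box CACGTG, to AP-1 as TGANTCA or to GAGGAAGT, a core of ETS factors such as SPI1. The windows are chr3:95526536-95526785 (+) for Ctss, chr7:88277835-88278084 (+) for Ctsc, chr5:130003050-130003299 (-) for Gusb, chr3:95498960-95499209 (+) for Ctsk, chr9:114400828-114401077 (+) for Glb1 and chr8:13158911-13159160 (+) for Lamp1.
Ctss: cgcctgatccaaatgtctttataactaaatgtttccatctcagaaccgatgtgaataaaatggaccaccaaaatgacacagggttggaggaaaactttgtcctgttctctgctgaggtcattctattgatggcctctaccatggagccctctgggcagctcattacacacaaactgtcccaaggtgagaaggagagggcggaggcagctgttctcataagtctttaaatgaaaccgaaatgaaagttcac
Ctsc: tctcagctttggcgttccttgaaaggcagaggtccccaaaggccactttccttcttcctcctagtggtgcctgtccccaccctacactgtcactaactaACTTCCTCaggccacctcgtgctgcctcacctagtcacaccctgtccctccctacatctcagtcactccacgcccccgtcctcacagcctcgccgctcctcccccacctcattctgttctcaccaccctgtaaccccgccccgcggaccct
Gusb: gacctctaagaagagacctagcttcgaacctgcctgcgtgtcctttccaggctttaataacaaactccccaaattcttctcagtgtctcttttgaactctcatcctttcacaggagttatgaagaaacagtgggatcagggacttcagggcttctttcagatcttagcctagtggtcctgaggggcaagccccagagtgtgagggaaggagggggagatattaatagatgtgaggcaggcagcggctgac
Ctsk: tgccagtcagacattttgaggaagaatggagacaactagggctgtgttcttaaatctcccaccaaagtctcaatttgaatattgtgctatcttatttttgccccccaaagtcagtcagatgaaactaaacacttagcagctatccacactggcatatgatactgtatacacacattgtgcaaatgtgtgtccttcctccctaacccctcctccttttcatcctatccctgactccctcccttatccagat
Glb1: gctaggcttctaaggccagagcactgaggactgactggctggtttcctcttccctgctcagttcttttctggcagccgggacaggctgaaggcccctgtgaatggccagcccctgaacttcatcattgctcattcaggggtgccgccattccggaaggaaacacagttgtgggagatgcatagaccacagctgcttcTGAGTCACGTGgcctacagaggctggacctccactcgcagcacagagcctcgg
Lamp1: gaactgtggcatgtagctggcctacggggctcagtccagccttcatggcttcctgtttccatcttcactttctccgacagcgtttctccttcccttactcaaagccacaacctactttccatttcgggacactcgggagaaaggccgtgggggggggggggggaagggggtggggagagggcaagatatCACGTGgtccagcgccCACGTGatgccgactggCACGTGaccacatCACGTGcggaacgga
The Lamp1 window held 4 E-boxes, the first letters of which lay at positions -61, -45, -28 and -15 from the start site. In Glb1 a single E-box from -48 to -43 overlapped an AP-1 match from -53 to -47. Ctsc held the ETS core from -151 to -144, and no match to these letters was found in the windows of Ctss, Gusb and Ctsk.

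RefSeq gave 36 such windows for 32 members, and Ctsb, Ctsh, Ctsw and Npc1 had no entry. An E-box was present in 27.8% of the member windows, against 6.02% of 32851 windows of this length over all genes, both strands counted. The 10 members were Ctsa, Ctsd, Ctsf, Ctsl, Gaa, Gla, Glb1, Lamp1, Mcoln1 and Naglu, all of them general. Of the leukocyte-type members only Ctsc, Ctss, Ctsz and Laptm5 had a window, too few to compare E-box shares between the classes. The longer TCACGTGA, which contains the E-box, stood in 11.1% of member windows (Ctsa, Ctsd, Gla and Mcoln1) and in 0.785% of all windows. AP-1 was found in 8.33% of member windows (Glb1, Neu1 and Psap) and in 6.75% of all. GAGGAAGT was found in 5.56% of member windows (Ctsc and Gla) and in 2.44% of all. A match is a description of the letters and not of a bound site.

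RNA libraries held between 14238228 and 43704147 counts in genes. All 36 members had counts in all 38 libraries and passed the filter on low counts in every comparison. The members together took 0.955% to 1.21% of gene counts in kidney, 0.561% to 0.748% in liver and 1.55% to 1.83% in fibroblasts. The labelled tissues showed their own markers, since all 9 kidney tubule markers were higher in young kidney and all 7 hepatocyte markers were higher in young liver. The 8 fibroblast markers summed to between 17830 and 23900 CPM (gene counts scaled to library size) in fibroblast cultures, where 4 keratinocyte markers together reached at most 0.335 CPM. One library stood apart: hepatocyte markers summed to 3603 CPM in replicate 2 of old kidney and to between 194 and 324 CPM in the other 7 young and old kidney libraries.

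Per kilobase of exon (GENCODE vM21), the most abundant members were general ones, with Ctsh of the leukocyte-type members beside them in liver. In young kidney the mean level was 773 ± 117 CPM per kb (SD, n = 4) for Cd63, a tetraspanin of late endosomes. Lamp1 stood at 614 ± 45.8, Psap, the precursor of the saposins that help break down sphingolipids, at 596 ± 56.8, and the aspartic protease Ctsd at 419 ± 63.6 CPM per kb. Ranges of 1 SD met for Cd63 and Lamp1 and for Lamp1 and Psap, but not for Psap and Ctsd. In young liver Lamp1 (282 ± 37.8), Ctsd (228 ± 46.1) and the aminopeptidase cathepsin Ctsh (221 ± 77.0) led, and their ranges of 1 SD met. In DMSO fibroblasts Ctsd led with 1397 ± 101 CPM per kb (SD, n = 3), followed by Cd63 (1088 ± 146) and Lamp1 (789 ± 49.1), and these 3 were apart by more than 1 SD on each side. At the other end, Ctsw, a cathepsin of cytotoxic lymphocytes, had the lowest mean level per kb in all 3, with 0.383 ± 0.209 in young kidney, 0.511 ± 0.312 in young liver and 0.917 ± 0.041 in DMSO fibroblasts. In young liver Ctsk (0.565 ± 0.367) was within 1 SD of Ctsw. Ctsc was next to lowest in fibroblasts (1.95 ± 0.23 CPM per kb).

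Old kidney carried more RNA of a small, mostly leukocyte-type group of members, while the bulk of the general genes moved little. Compared with young kidney, 5 of 36 members rose and 0 fell at an adjusted p under 0.05 (edgeR quasi-likelihood test), namely Ctss, Laptm5, Ctsw, Gusb and Hexa. Over all 14495 genes tested, 8.15% rose and 3.36% fell. Of the members that rose, 3 also exceeded a fold change of 2, against 5.68% of all genes, and all 3 were leukocyte-type. On GRCm38 with GENCODE vM21, Ctss lies at chr3:95526786-95556403, Laptm5 at chr4:130913125-130936141, Ctsw at chr19:5465240-5468507, Gusb at chr5:129989011-130003049 and Hexa at chr9:59539540-59565109. The values that follow are CPM on the scale of this comparison, in the order of the replicate numbers, and CPM from different comparisons are on different scales.

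Ctss measured 16.1, 15.3, 18.9 and 14.5 CPM in young kidney and 69.9, 142, 76.8 and 210.4 CPM in old kidney. The lowest old library lay far above the highest young one, and replicates 2 and 4 were the highest of the old libraries. The log2 fold change was 2.95 ± 0.34 (SE, n = 4 per group), with an adjusted p of 0.00112 by the edgeR quasi-likelihood test. Laptm5, a lysosomal membrane protein of blood cells that lowers antigen receptor levels, measured 13.3, 15.5, 12.7 and 14.8 CPM in young and 47.9, 63.9, 34.2 and 83.3 CPM in old kidney. Its groups did not overlap, and replicates 2 and 4 were again the highest. For Laptm5 the log2 fold change was 2.03 ± 0.25 (edgeR adjusted p = 0.00127). Ctsw measured 0.852, 0.27, 0.358 and 0.419 CPM in young and 3.401, 2.12, 3.65 and 3.65 CPM in old kidney. All old libraries were higher, although the level stayed low throughout and replicate 2 was the lowest of the old group. For Ctsw it was 2.74 ± 0.40 (edgeR adjusted p = 0.00274).

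Gusb and Hexa, general enzymes that cleave glucuronides and the terminal hexosamines of gangliosides, rose by less. Gusb measured 30.7, 35.4, 30.4 and 35.6 CPM in young and 44.6, 48.6, 45.4 and 53.7 CPM in old kidney. Hexa measured 78.5, 77.0, 79.9 and 87.9 CPM in young and 115.7, 102.3, 95.5 and 127 CPM in old kidney. In both genes every old library exceeded every young one. The log2 fold changes were 0.54 ± 0.11 for Gusb and 0.45 ± 0.11 for Hexa, with edgeR adjusted p of 0.0118 and 0.0313.

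**Figure D1:**
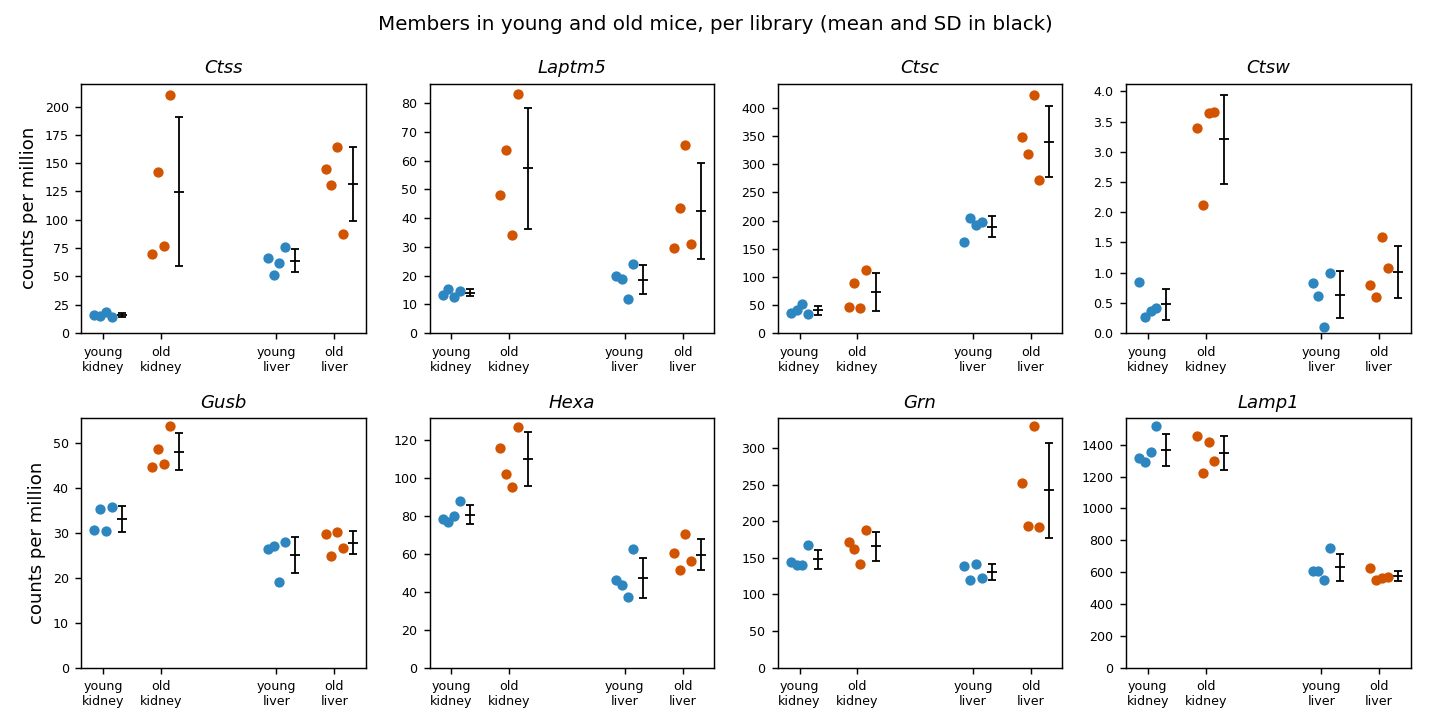
CPM of 8 members in young and old kidney and liver, each dot a library, with the mean and SD of 4 libraries; each tissue is on its own CPM scale. Ctss, Laptm5 and Ctsw in kidney show old libraries well above young ones, and Lamp1 overlaps between ages in both tissues.

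Of the 10 papain-type cathepsins in the list, Ctss and Ctsw passed. Ctsc (log2 fold change 0.86, edgeR adjusted p = 0.091), Ctsk (0.83, 0.0545) and Ctsh (0.49, 0.0965) had positive values that did not pass, and Ctsb (0.14), Ctsf (0.06), Ctsl (-0.05), Ctso (0.11) and Ctsz (0.30) lay nearer 0. None of the 3 other peptidases passed, with values of 0.45 for Ctsd, 0.14 for the carboxypeptidase Ctsa and -0.02 for the tripeptidyl peptidase Tpp1. Among 11 enzymes of glycan breakdown, 2 rose, and the others ran from -0.49 for Ids, an iduronate sulfatase, to 0.48 for Gla, α-galactosidase A. None of the 4 genes of lipid handling passed (Lipa, an acid lipase, at -0.24, the cholesterol transporters Npc1 at -0.17 and Npc2 at 0.31, and Psap at -0.06). Apart from Laptm5, the membrane proteins Lamp1 (-0.02), Lamp2 (-0.23), Scarb2 (0.28), the calcium channel Mcoln1 (-0.09) and Cd63 (-0.11) did not pass. Neither did Tfeb (0.10) or Grn, which encodes progranulin (0.16).

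The median log2 fold change was 1.45 over the 6 leukocyte-type members, 0.10 over the 30 general ones and 0.02 over all genes tested. All 6 leukocyte-type members had positive values, and 18 of 30 general members did. Ranges of the young and old libraries did not overlap for 8 members that were higher in old kidney (3 leukocyte-type) and 2 that were lower (Manba and Lamp2), against 10.9% and 6.91% of all genes. Summed per library, the leukocyte-type members reached 461 to 636 CPM in young and 784 to 987 CPM in old kidney, without overlap. Ctsh and Ctsz, neither of which passed, made up most of each sum, with 233.4 and 177.8 of 476.9 CPM in young replicate 1. In old replicate 1 they gave 453.7 and 253.6 of 874.1 CPM. The general members summed to between 9737 and 11730 CPM in young and between 9744 and 11330 CPM in old kidney, which overlapped almost fully.

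Markers of white blood cells moved with these members. The sum of 12 macrophage markers ran from 155 to 194 CPM in young and from 760 to 1587 CPM in old kidney, and 11 of the 12 rose with a list median of 2.69. Among them were Lyz2 (3.54), C1qa (2.78) and Aif1 (2.70), and no macrophage marker had a negative value. All 6 B and plasma cell markers rose (sum of 5.73 to 11.8 CPM in young and 354 to 521 CPM in old), as did 5 of 5 dendritic cell markers and 4 of 8 T and NK cell markers, of which 6 could be tested. Old replicates 2 and 4, which were highest for Ctss and Laptm5, also had the highest sums of 8 fibroblast markers, at 696 and 825 CPM against 365 to 452 CPM in the other 6 libraries. Kupffer cell markers summed to 37.0 CPM in old replicate 2 and to at most 7.56 CPM elsewhere. The part of these cells in the rise of Ctss, Laptm5 and Ctsw was not tested. In bulk tissue, fewer cells of a type and less RNA per cell cannot be told apart, and the same holds for more cells and more RNA.

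Ctss, Laptm5 and Ctsw passed in every alternative analysis run for this comparison, including each removal of 1 library. Their log2 fold changes varied, from 2.18 to 3.14 for Ctss, 1.55 to 2.22 for Laptm5 and 2.28 to 3.19 for Ctsw. Without replicate 2 of old kidney 11 members rose and 1 fell, while over all genes 11.5% rose and 12.2% fell. Without replicate 3 of young kidney 3 members and 4.85% of all genes rose. Without replicates 2 and 4 of old kidney together 10 members rose and 2 fell, against 12.4% and 15.5% of all genes. Hexa lost its call in 5 of 8 removals and Gusb in the removal of young replicate 3. A correction for gene length and GC content moved the median over all genes from 0.02 to -0.11 and that of the general members from 0.10 to -0.03. Over all these alternatives the leukocyte-type median lay between 1.11 and 1.62 and the general one between -0.03 and 0.18. After it 6 members were called higher and 6 lower (Cd63, Lamp1, Manba, Mcoln1, Neu1 and Psap), against 8.67% and 16.4% of all genes, and Hexa was near 0 (0.10, edgeR adjusted p = 0.517).

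In old liver fewer members rose, Ctss and Ctsc beside Grn, the general member that encodes progranulin, a glycoprotein cleaved into granulins in the lysosome. Of 36 members 3 rose and 0 fell (edgeR adjusted p under 0.05), against 1.91% and 0.558% of 12537 genes tested. Only Ctss exceeded a fold change of 2, as 1.69% of all genes did.

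In young liver Ctss measured 66.3, 51.1, 62.3 and 75.6 CPM, and in old liver 144.7, 131, 163.9 and 87.4 CPM. Old replicate 4 came close to the young range, but all old libraries were higher. The log2 fold change was 1.05 ± 0.21 (SE, n = 4 per group, edgeR adjusted p = 0.0319). Ctsc measured 161.7, 204.9, 191.7 and 197.7 CPM in young and 347.7, 318.2, 423.9 and 271.9 CPM in old liver. Its groups were likewise apart, and old replicate 4 was again the lowest of its group. For Ctsc the log2 fold change was 0.85 ± 0.19 (edgeR adjusted p = 0.0435). Grn measured 138.7, 120.1, 141 and 122.3 CPM in young and 251.9, 193.9, 329.7 and 192.1 CPM in old liver, without overlap. Its log2 fold change was 0.89 ± 0.21 (edgeR adjusted p = 0.0486).

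Laptm5 (log2 fold change 1.19, edgeR adjusted p = 0.0594) and Cd63 (1.06, 0.111) had larger values than these but wider spread, and did not pass. Ctsb, one of the most abundant cathepsins, stood at 0.56 (0.18) and Ctsf at -0.60 (0.137). No enzyme of glycan breakdown passed: the 11 values lay between -0.09 and 0.47. The lipid-handling genes ran from -0.38 (Npc1) to 0.33 (Npc2 and Psap) and Tfeb was at -0.06. The 6 leukocyte-type members had a median of 0.75, the 30 general ones 0.09 and all genes 0.00 (0.003 before rounding). Of the leukocyte-type members Ctsh had a negative value in liver (-0.18, edgeR adjusted p = 0.89), and Ctsz (0.38, 0.543) and Ctsw (0.66, 0.714) did not pass. Libraries did not overlap for 8 members higher in old liver (Ctss, Ctsc, Laptm5, Ctsb, Grn, Cd63, Gla and Psap) and 1 lower (Ctsf), where 6.05% and 3.9% of all genes did so.

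Leukocyte-type members together reached 721 to 1120 CPM in young and 903 to 1412 CPM in old liver, and these ranges overlapped. Ctsh, with its negative value, gave 246 to 533 CPM of this in young and 268 to 452 CPM in old liver. The 12 macrophage markers summed to between 540 and 812 CPM in young and between 812 and 1614 CPM in old liver, and 3 of them rose (Lyz2, Itgam and Cd68). All 5 granulocyte markers rose (sum of 2.51 to 5.36 CPM in young and 12.9 to 125.3 CPM in old), as did 4 of 6 B and plasma cell markers and 2 of 5 Kupffer cell markers (Vsig4 and Cd5l). Hepatocyte markers summed to 166200 CPM in old replicate 1, to between 97520 and 106100 CPM in the other old libraries and to between 126700 and 202700 CPM in young liver. Old replicate 1 was also the lowest library for Npc1 (27.8 CPM, against 71.5 to 80.1 in the other old libraries) and for Ids (5.15 CPM, against 15.5 to 20.1). The part of these markers in the rise of Ctss, Ctsc and Grn was not tested. All 3 calls were lost in 6 of the 8 removals of 1 library, and they held without old replicate 1 and without old replicate 4. DESeq2 called 6 members higher, against 4.94% of all genes. Only Ctss passed when the percentage of reads that fell in no gene was added to the model. With the replicate number as a block, a pairing for which the check was not met here, all 3 calls were lost.

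The age effect was compared between the tissues by an interaction term over 15036 genes. Only Ctss passed among the members, with an age effect smaller in liver by 1.84 ± 0.39 on the log2 scale (SE; edgeR adjusted p = 0.0249). No member passed with a larger effect in liver by edgeR, although Cd63 (1.20, adjusted p = 0.159) and Grn (0.77, 0.115) had positive differences and DESeq2 called Grn. Over all genes 0.871% were higher and 0.845% lower in liver than in kidney by this test. The leukocyte-type members had a median difference of -0.71 and the general ones 0.03. Of the 12 macrophage markers 6 also had a smaller age effect in liver, and none a larger one. With the replicate number as a block the call for Ctss was lost (edgeR adjusted p = 0.0679). It was also lost in 4 of 16 removals of 1 library, those of young kidney replicates 1, 2 and 4 and young liver replicate 4.

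**Figure D2:**
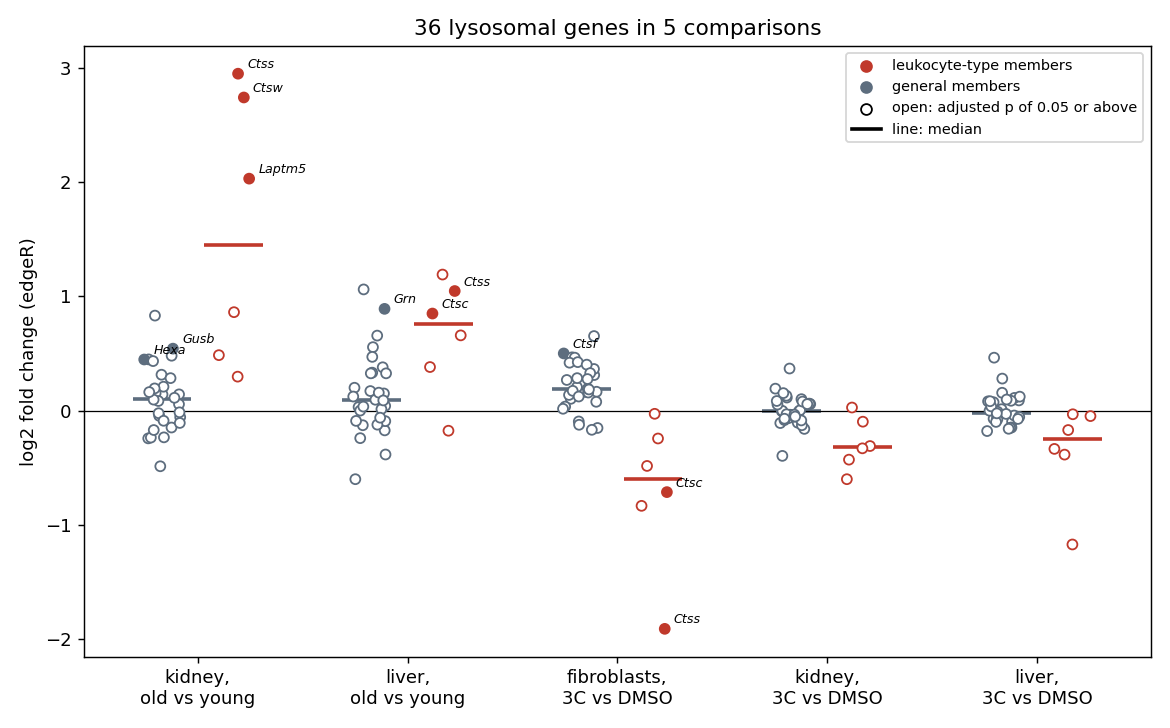
Log2 fold change of each of the 36 members in 5 comparisons (kidney age, liver age, and 3C against DMSO in fibroblasts, kidney and liver), red for leukocyte-type and with a line at the median of each class; filled points passed an edgeR adjusted p under 0.05. Leukocyte-type medians lie at 1.45 and 0.75 with age and at -0.60, -0.32 and -0.25 with 3C, and general medians lie between -0.02 and 0.19 throughout.

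In skin fibroblasts Ctss and Ctsc, of the leukocyte-type members, fell in 3C compared with DMSO and 1 general member, the widely expressed cathepsin Ctsf, rose (edgeR adjusted p under 0.05). Over 13449 genes 1.78% fell and 2.43% rose. Ctss alone fell to under 0.5 of its DMSO level, as did 0.632% of all genes.

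Ctss measured 9.75, 6.24 and 7.32 CPM in DMSO and 1.85, 2.14 and 2.203 CPM in 3C. Every 3C library was well below every DMSO library. The log2 fold change was -1.91 ± 0.24 (SE, n = 3 per group, edgeR adjusted p = 0.00184). Ctsc measured 9.18, 11.65 and 10.34 CPM in DMSO and 6.35, 6.38 and 6.29 CPM in 3C, where the libraries were almost equal. Its log2 fold change was -0.71 ± 0.17 (edgeR adjusted p = 0.0385). Ctsf measured 81.2, 73.5 and 83.3 CPM in DMSO and 102.7, 121.8 and 111.9 CPM in 3C, again without overlap. For Ctsf it was 0.50 ± 0.12 (edgeR adjusted p = 0.0385).

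All 6 leukocyte-type members had negative values, with a median of -0.60, and 26 of 30 general members had positive ones, with a median of 0.19, against 0.01 over all genes. Laptm5 was at -0.83 (edgeR adjusted p = 0.0572), Ctsw at -0.48 (0.475), Ctsh at -0.24 and Ctsz at -0.03. On the general side Ctso (0.65, 0.0658), Hexa (0.47, 0.0776), the mannosidase Man2b1 (0.46, 0.0624), the sialidase Neu1 (0.42, 0.0798) and Naglu (0.42, 0.0824), an enzyme of heparan sulfate breakdown, did not pass either. The 4 general members below 0 were Ctsb (-0.10), Ctsl (-0.15), Gla (-0.17) and Cd63 (-0.12). The 3C and DMSO libraries did not overlap for 14 members that were higher in 3C, all general, and for 4 that were lower, all leukocyte-type (Ctss, Ctsc, Laptm5 and Ctsw). Of all genes 13% were higher and 12.5% lower in this sense. Summed per library, the leukocyte-type members reached 667 to 765 CPM in DMSO and 577 to 760 CPM in 3C, which overlapped. Ctsz (576.5, 523.5 and 558.6 CPM in DMSO) and Ctsh (157.4, 115.1 and 120.5 CPM) made up most of this sum. It therefore says little of Ctss, Ctsc, Laptm5 and Ctsw, which each reached at most 13.05 CPM.

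**Figure D3:**
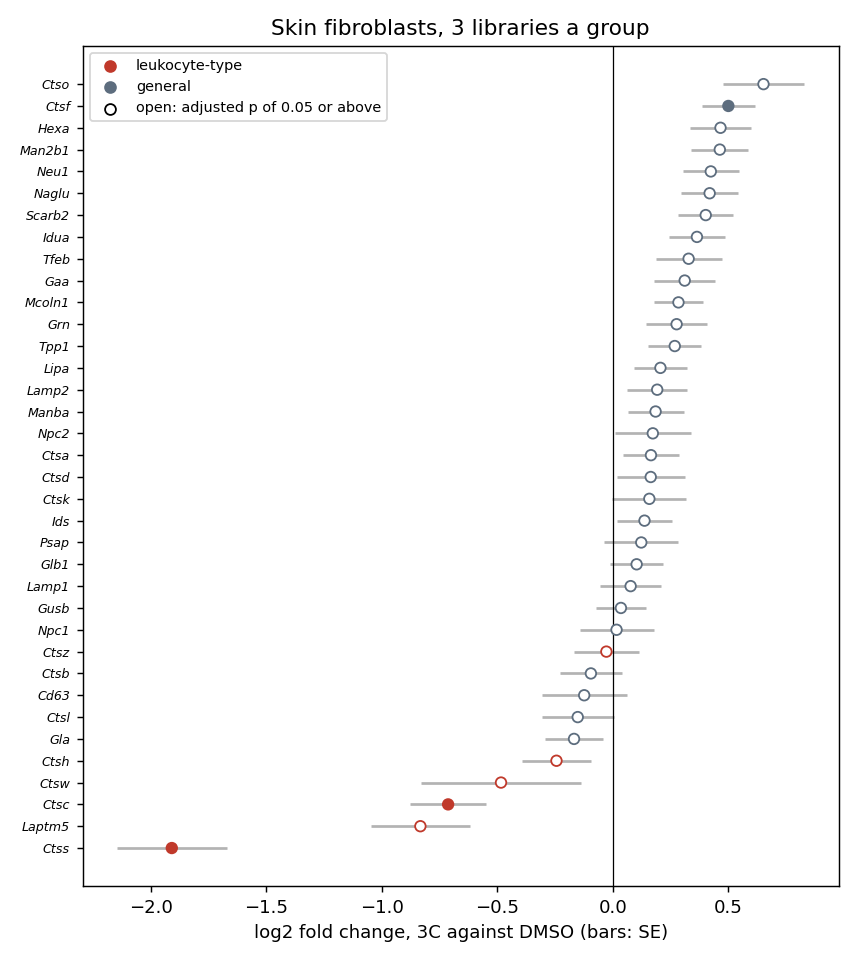
Log2 fold change of 3C against DMSO in skin fibroblasts for the 36 members, with bars of 1 SE and 3 libraries per group; filled points passed an edgeR adjusted p under 0.05 and leukocyte-type members are in red. Ctss lies at -1.91 and Ctsc at -0.71, and 26 of the 30 general members lie above 0.

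Macrophage markers also moved in these cultures. They summed to between 293 and 383 CPM in DMSO and between 112 and 182 CPM in 3C, all 9 that could be tested had negative values, and Lyz2 (-1.35) and Csf1r (-0.94) passed. Cd163, a marker of tissue macrophages, had no counts in the DMSO libraries, and the 8 T and NK cell markers together reached at most 0.0441 CPM in DMSO. The part of such cells in the lower Ctss and Ctsc was not tested. Ctss kept its call in each removal of 1 library, Ctsc lost it in all 6 and Ctsf in 5 of 6. With the replicate number as a block Ctss kept its call, and Ctsc and Ctsf lost theirs. DESeq2 called 6 members higher and 3 lower in 3C, against 4.29% and 3.67% of all genes, and 3 were higher and 3 lower both without a filter and after correction for length and GC content.

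In kidney of 20 to 21-month mice no member passed between 3C and DMSO, and 0% of 14974 genes were called in either direction by edgeR. At an unadjusted p under 0.05, edgeR gave 1786 genes, or 11.9%, and 6 members. DESeq2 called 73 genes higher and 158 lower, with Ctss the single member among them (lower, DESeq2 adjusted p = 0.04). Ctss measured 48.5, 63.4, 72.9 and 67.9 CPM in DMSO and 38.1, 58.6, 34.5 and 35.4 CPM in 3C. The groups overlapped through 3C replicate 2, which was far above the other 3 of its group. The log2 difference was -0.60 ± 0.17 (SE, n = 4 per group, edgeR adjusted p = 0.244), and without 3C replicate 2 Ctss passed as lower. Laptm5 measured 62.5, 61.9, 83.3 and 64.3 CPM in DMSO and 53.8, 60.6, 40.3 and 47.3 CPM in 3C, which did not overlap. Its log2 difference was -0.43 (edgeR adjusted p = 0.261).

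The leukocyte-type median was -0.32 and the general one -0.01 (all genes 0.00, or 0.004 before rounding). Members whose 3C and DMSO libraries did not overlap were Lamp2, Manba and Mcoln1 on the higher side and Laptm5 and Ctsk on the lower, against 3.1% and 3.84% of all genes. Beside them, the macrophage markers summed to between 637 and 722 CPM in DMSO and between 398 and 626 CPM in 3C, and 0 of 12 passed although all 12 values were negative. The part of these cells in the lower Laptm5 was not tested.

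In liver of the same ages no member passed, and 0% of 13042 genes were called higher or lower by edgeR, with 436 genes (3.34%) and 2 members at an unadjusted p under 0.05. DESeq2 called 4 genes higher and 2 lower and no member. Ctsw measured 1.96, 2.77, 2.32 and 1.51 CPM in DMSO and 1.06, 1.18, 0.495 and 1.02 CPM in 3C. Its libraries did not overlap, and the log2 difference was -1.17 (unadjusted p = 0.00422 and adjusted p = 0.9996 by edgeR quasi-likelihood). Npc1 measured 68.1, 86.7, 58.5 and 73.0 CPM in DMSO and 130.1, 102.1, 81.0 and 81.2 CPM in 3C, where the lower libraries overlapped. Its log2 difference was 0.46 (unadjusted p = 0.0233 by edgeR quasi-likelihood). No member was higher without overlap and only Ctsw was lower, against 1.1% and 1.11% of all genes. The medians were -0.25 for leukocyte-type and -0.02 for general members, and the former was -0.16 without DMSO replicate 1 and without 3C replicate 3. The interaction of 3C with tissue called 0% of 15526 genes higher and 0% lower by edgeR, and DESeq2 called 0 genes after adjustment. At an unadjusted p under 0.05 edgeR gave 554 genes and DESeq2 644. The members with the smallest p were Npc1 (0.53 ± 0.20 for liver minus kidney, edgeR adjusted p = 0.9999) and Ctsf (-0.36 ± 0.17, the same adjusted p). In kidney Npc1 measured 28.9, 26.7, 25.4 and 22.8 CPM in DMSO and 25.7, 23.7, 24.2 and 24.5 CPM in 3C, which overlapped. Ctsf measured 88.1, 83.5, 79.6 and 84.5 CPM in DMSO kidney and 116.4, 91.6, 90.1 and 85.6 CPM in 3C kidney, where 3C replicate 1 was the highest. In liver it measured 27.3, 24.6, 26.4 and 22.8 CPM in DMSO and 29.0, 19.7, 21.2 and 21.5 CPM in 3C, which overlapped through 3C replicate 1.

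More members differed between kidney and liver than with age or 3C. Between young kidney and young liver 10 members were higher in kidney and 17 in liver (edgeR adjusted p under 0.05), against 35.1% and 30.2% of 14057 genes. A fold change of 2 was exceeded by 7 members toward kidney and 9 toward liver, against 25.7% and 16.9% of all genes. These libraries are the same young ones that serve as controls in the age comparisons. All 6 leukocyte-type members were on the liver side. In what follows, values in parentheses are log2 fold changes of kidney over liver with their SE, and all passed the edgeR test.

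Cd63 showed the widest gap, with 709.4, 672, 740.3 and 920.5 CPM in young kidney and 10.6, 4.26, 9.85 and 8.76 CPM in young liver. Neu1, which removes sialic acid, measured 282.1, 248.4, 241.4 and 328 CPM in kidney and 52.8, 45.8, 48.6 and 66.2 CPM in liver. Glb1 measured 101.1, 108.8, 105.3 and 142.4 CPM in kidney and 25.3, 22.1, 19.4 and 28.7 CPM in liver. No library of one tissue reached the range of the other in these 3 genes, and the log2 fold changes were 6.51 ± 0.29, 2.37 ± 0.16 and 2.26 ± 0.17. Ids measured 69.0, 64.5, 56.9 and 37.7 CPM in kidney and 14.6, 18.8, 18.3 and 14.4 CPM in liver. The β-mannosidase Manba measured 89.6, 87.3, 80.7 and 79.0 CPM in kidney and 24.8, 21.9, 34.3 and 18.0 CPM in liver. Both were clearly separated, with log2 fold changes of 1.79 and 1.77. Ctsk, low in both tissues, measured 5.27, 4.44, 4.35 and 7.03 CPM in kidney and 1.002, 0.233, 2.09 and 1.56 CPM in liver (2.14 ± 0.45). Tfeb measured 16.0, 20.1, 21.3 and 22.9 CPM in kidney and 8.46, 7.47, 7.62 and 12.3 CPM in liver (1.17 ± 0.20), a difference that shrank to 0.11 (edgeR adjusted p = 0.582) after correction for gene length and GC content.

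On the liver side, Ctsc measured 24.3, 27.3, 34.8 and 22.9 CPM in young kidney and 231.8, 290, 273.5 and 281.9 CPM in young liver (-3.30 ± 0.17). Ctss measured 11.1, 10.4, 12.8 and 9.78 CPM in kidney and 95.1, 72.3, 88.8 and 107.7 CPM in liver (-3.05 ± 0.16). Npc1, which exports cholesterol from the lysosome, measured 17.5, 15.9, 13.97 and 11.4 CPM in kidney and 154.7, 110.3, 116.9 and 100.7 CPM in liver (-3.04 ± 0.18). These 3 genes had the lowest levels in kidney relative to liver. Scarb2, the receptor that carries β-glucocerebrosidase to lysosomes, measured 51.4, 50.1, 50.5 and 45.4 CPM in kidney and 215.4, 196.7, 249.9 and 236.5 CPM in liver (-2.19 ± 0.13). Ctso measured 34.4, 36.4, 31.7 and 33.3 CPM in kidney and 105, 100.8, 95.4 and 94.6 CPM in liver (-1.54 ± 0.11). Both were tight within each tissue. Laptm5 measured 9.11, 10.52, 8.56 and 9.98 CPM in kidney and 28.5, 26.8, 16.8 and 34.2 CPM in liver (-1.48 ± 0.20). Ctsh measured 160.4, 154, 204 and 226.7 CPM in kidney and 431.2, 347.7, 496.8 and 759.6 CPM in liver (-1.45 ± 0.23). Ctsz, a carboxypeptidase cathepsin, measured 122.2, 110.9, 128.1 and 159.1 CPM in kidney and 307.3, 283, 307.3 and 411.6 CPM in liver (-1.33 ± 0.16). The tissues stayed apart in each of these, but not in Ctsw, with 0.585, 0.184, 0.242 and 0.283 CPM in kidney and 1.19, 0.875, 0.144 and 1.41 CPM in liver (-1.47 ± 0.60, edgeR adjusted p = 0.0488). The call for Ctsw was lost in 6 of 8 removals of 1 library, with adjusted p up to 0.129, and also without a filter and after correction for length and GC content. Of the members that passed with a fold change under 2, the 4 with the smallest p-values are given. Grn measured 99.2, 95.6, 94.4 and 112.8 CPM in kidney and 198.9, 170, 201.1 and 174.3 CPM in liver (-0.89 ± 0.12). Lipa, the acid lipase, measured 248.2, 195.1, 197.6 and 205.7 CPM in kidney and 415.9, 356.1, 484 and 399.1 CPM in liver (-0.97 ± 0.14). Each tissue kept to its own range in these genes. Ctsl measured 415, 406.2, 448.3 and 482.4 CPM in kidney and 904.7, 830.4, 696.2 and 844.5 CPM in liver (-0.90 ± 0.14). Psap went the other way, with 1123, 1087, 990.2 and 1243 CPM in kidney and 633.9, 626.9, 677.7 and 610.9 CPM in liver (0.80 ± 0.14). Beside these values, all 12 macrophage markers and all 5 Kupffer cell markers were lower in young kidney than in young liver, and their part was not tested. The replicate number was also used as a block. Its pairing check was met in the genes of this comparison, although replicate 2 correlated best with number 1, but not in those of the interaction. With the block 12 members were higher in kidney and 19 in liver, and over all genes the shares also went up, to 38.2% and 33.0%. Ctsa and Idua were gained toward kidney and Hexa, Man2b1 and Npc2 toward liver, while Ctsw was lost (edgeR adjusted p = 0.055).

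**Figure D4:**
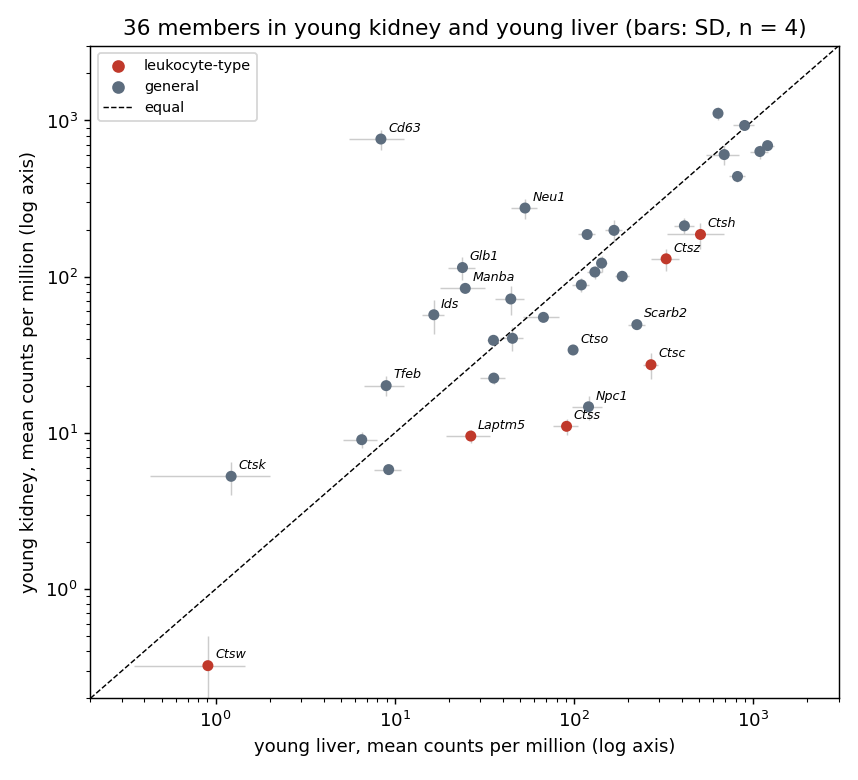
Mean CPM of the 36 members in young kidney (vertical, log scale) against young liver (horizontal, log scale), with SD over 4 libraries per tissue and leukocyte-type members in red. The 6 leukocyte-type members lie on the liver side of the diagonal, and Cd63 lies farthest on the kidney side.

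In the older DMSO mice 11 members were higher in kidney and 16 in liver, against 38.7% and 33.2% of 14981 genes, with 6 and 9 past a fold change of 2, against 26.6% and 15.7%. These DMSO libraries are also the controls of the 3C comparisons. Cd63 measured 628.6, 662.3, 648.1 and 659 CPM in kidney and 14.3, 10.9, 12.01 and 9.94 CPM in liver (5.79 ± 0.14). Glb1 measured 96.3, 95.3, 95.3 and 87.9 CPM in kidney and 19.7, 19.7, 23.5 and 20.7 CPM in liver (2.17 ± 0.09). Neu1 measured 260.8, 283.9, 297.6 and 224.9 CPM in kidney and 64.5, 71.0, 79.1 and 67.9 CPM in liver (1.92 ± 0.11). All 3 were separated by a wide gap on the kidney side. Manba measured 82.3, 81.4, 81.6 and 79.3 CPM in kidney and 21.6, 25.0, 24.9 and 23.0 CPM in liver (1.78 ± 0.08). Ids measured 59.3, 52.6, 51.5 and 54.7 CPM in kidney and 29.6, 26.4, 21.8 and 23.8 CPM in liver (1.10 ± 0.11). Ctsk measured 7.56, 6.68, 6.41 and 7.21 CPM in kidney and 3.07, 0.377, 1.18 and 0.765 CPM in liver (2.35 ± 0.43). The last 3 were separated as well, with Ctsk low in both tissues.

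Toward liver, Ctsc measured 30.7, 33.3, 38.3 and 32.5 CPM in DMSO kidney and 380.2, 319.9, 263.2 and 278.6 CPM in DMSO liver (-3.21 ± 0.14). Npc1 measured 20.9, 19.1, 18.0 and 16.4 CPM in kidney and 96.7, 122.6, 84.5 and 103.6 CPM in liver (-2.45 ± 0.13). Scarb2 measured 53.9, 52.0, 50.2 and 53.9 CPM in kidney and 198.5, 176.5, 160.1 and 188 CPM in liver (-1.78 ± 0.09). These were the lowest of the members in kidney relative to liver. Ctsz measured 123.4, 125.9, 126.1 and 120.5 CPM in kidney and 353.4, 433.3, 538.2 and 330.7 CPM in liver (-1.74 ± 0.15). Ctso measured 27.2, 31.5, 31.6 and 27.0 CPM in kidney and 72.9, 89.9, 75.9 and 82.2 CPM in liver (-1.45 ± 0.10). Lipa, which frees cholesterol from its esters, measured 139.8, 163.7, 130.1 and 96.9 CPM in kidney and 423.6, 318.6, 330.2 and 356 CPM in liver (-1.43 ± 0.16). The tissues did not overlap in any of them, and the same held for the next 3. Grn measured 152.1, 158.5, 154.9 and 150.1 CPM in kidney and 351.2, 417, 471.8 and 312.5 CPM in liver (-1.34 ± 0.13). Ctsh measured 162.2, 157.5, 162.4 and 153.1 CPM in kidney and 393.6, 294.9, 350.4 and 322.9 CPM in liver (-1.10 ± 0.11). Ctsb measured 606.6, 631.3, 604.3 and 566.4 CPM in kidney and 1267, 1232, 1338 and 1147 CPM in liver (-1.05 ± 0.11).

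Further differences in DMSO mice were smaller. Ctsl measured 318.4, 325.3, 308 and 293.1 CPM in kidney and 533.6, 662.7, 540.9 and 584.6 CPM in liver (-0.90 ± 0.11). Lamp2, a membrane protein needed for autophagy, measured 455.6, 459.5, 438 and 437.8 CPM in kidney and 721, 733, 767.3 and 815.7 CPM in liver (-0.76 ± 0.10). Both were higher in every liver library, and the next pair in every kidney library. Ctsf measured 63.7, 59.7, 56.5 and 60.5 CPM in kidney and 38.8, 34.8, 38.1 and 32.4 CPM in liver (0.74 ± 0.09). Tfeb measured 36.9, 32.1, 32.1 and 29.6 CPM in kidney and 19.4, 17.5, 18.4 and 13.6 CPM in liver (0.92 ± 0.12), a difference that fell to -0.03 (edgeR adjusted p = 0.786) after correction for gene length and GC content.

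Of the 6 leukocyte-type members only Ctsc, Ctsh and Ctsz passed toward liver in the DMSO mice. Ctss stood at -0.44 (edgeR adjusted p = 0.0588), Laptm5 at 0.15 and Ctsw at 0.38, none of which passed. Macrophage markers were lower in kidney for 7 of 12 and higher for 1 of 12 in the DMSO mice.

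ATAC-seq peaks near the start sites were present at nearly all general members and missing from most libraries at Ctss and from all at Ctsw. A peak within 1 kb of an annotated start was found in all 6 kidney libraries for 32 of 36 members and in all 6 liver libraries for 31 of 36, against 56.5% and 50.5% of all genes. No library had such a peak at Ctsw. Ctss had one in 1 old kidney library (fold enrichment 2.0) and 1 old liver library (2.59) and in no young library. Laptm5 had a peak in 1 of 3 young and 2 of 3 old kidney libraries and in 2 of 3 libraries of liver at each age, and Ctsk in 2 of 3 young and 2 of 3 old kidney libraries, 1 of 3 young liver libraries and no old one. Ctsc, Ctsh and Ctsz had a peak in all 12 libraries.

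The height of the top peak, as fold enrichment over background given by the peak caller, was compared between ages by whether the 3 old libraries lay beyond the 3 young ones. With 3 against 3 an exact permutation test cannot go below p = 0.1, so none is given. In kidney 4 members were higher in all old libraries (Ctsb, Gla, Psap and Grn) and 0 lower, against 13.5% and 8.8% of 17422 genes with a peak. Every old kidney library had fewer called peaks (93072 to 108970) than every young one (115836 to 128395). Age and peak number can therefore not be told apart in kidney. Gla had 3.88, 6.02 and 7.56 in young and 9.57, 9.85 and 10.7 in old kidney. Grn had 3.78, 5.31 and 5.59 in young and 6.63, 6.83 and 7.06 in old kidney. In both the old libraries were closer together than the young ones. In liver 4 members were higher (Ctsc, Ctsl, Lipa and Scarb2) and 2 lower (Ctsa and Ctsh), against 7.18% and 5.85% of 17427 genes. Ctsc had 4.20, 4.45 and 4.49 in young and 4.85, 5.73 and 6.05 in old liver. Ctsh had 8.30, 8.68 and 10.12 in young and 6.32, 6.48 and 7.05 in old liver. Among the members whose RNA rose with age, Gusb had mean fold enrichments of 6.24 ± 1.59 (SD, n = 3) in young and 5.28 ± 0.80 in old kidney, and Hexa 4.58 ± 1.13 and 4.21 ± 0.56, which overlapped. Grn, whose RNA rose in liver, had 3.07 ± 0.22 in young and 3.21 ± 0.68 in old liver, which overlapped too. When 1 library was left out in turn, the number of members higher in old kidney ran from 4 to 10 and in old liver from 4 to 7.

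**Figure D5:**
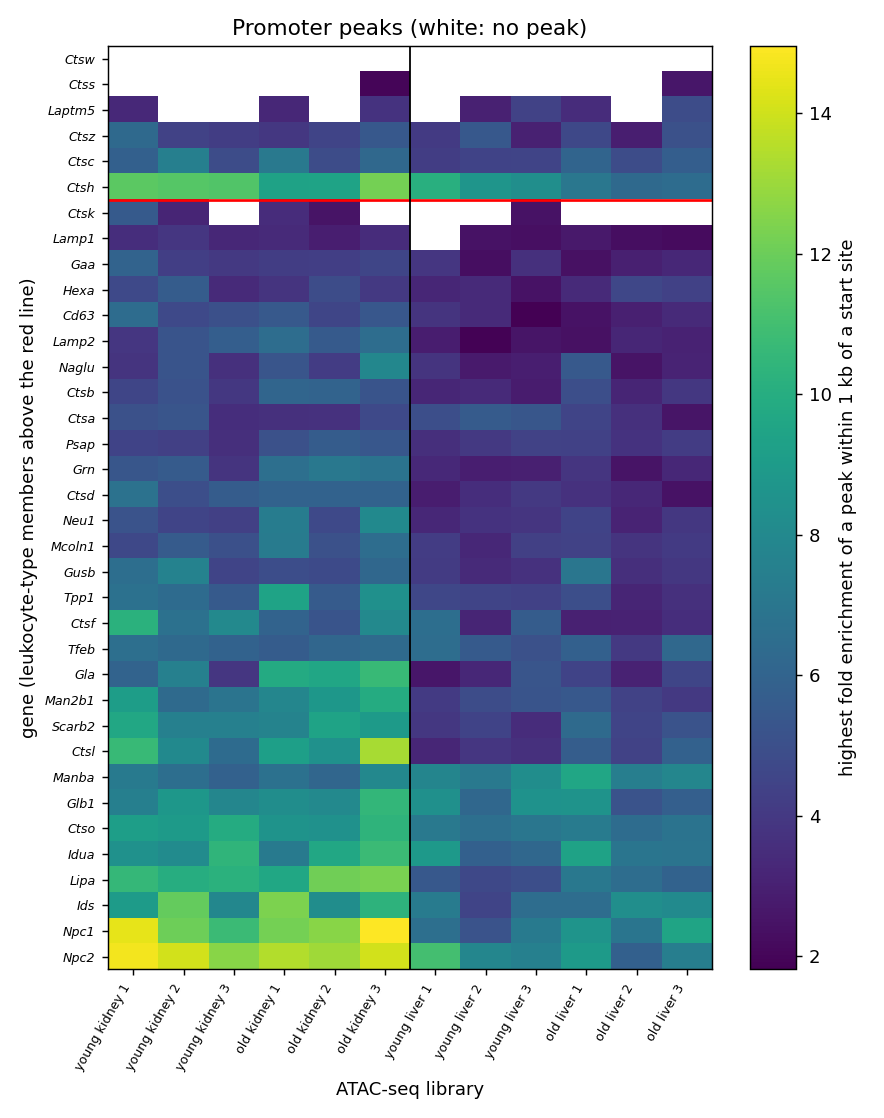
Fold enrichment of the top ATAC-seq peak within 1 kb of a start site for the 36 members (rows) in 12 libraries (columns), with white where no peak was called. Ctsw is white in all 12 and Ctss in all but 2, whereas most general members carry a peak throughout.

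Other lysosomal genes, from lists chosen by function, gave the setting for these values. Of 24 further hydrolases 1 rose in old kidney, the acid nuclease Dnase2a (0.85, edgeR adjusted p = 0.0279), with a list median of 0.08. In old liver 2 of the 24 rose, Pla2g15 (1.41, 0.00498), an acid phospholipase, and Lgmn (0.96, 0.0348), the asparaginyl endopeptidase that processes cathepsins. Of 15 subunits of the proton pump 2 fell in old kidney (Atp6v1a, -0.66, and Atp6v1b2, -0.41, edgeR adjusted p of 0.021 and 0.0265) and 0 changed in old liver. Of 3 cathepsin inhibitors 2 rose in old kidney, Cst7 (3.93, 0.00708) and Cst3 (0.84, 0.0246). Among 6 genes of enzyme sorting only Sort1 changed with age, and it fell in old liver (-2.27, 0.00139). None of 14 genes of MiT/TFE control changed with age in either tissue, and Tfec fell in 3C fibroblasts (-1.54, edgeR adjusted p = 0.00381). In fibroblasts none of the 24 further hydrolases passed, although 19 of them had positive values.

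The authors counted reads without regard to strand, so reads from overlapping exons cannot be assigned with certainty. Of exonic length in GENCODE vM21, 31.5% of Ctsd is shared with a gene model on the same strand, and 28.2% of Ctsl, 22.3% of Ctsa and 16.3% of Ctsb with genes on the other strand. Ctss, Ctsc, Ctsw, Laptm5, Gusb, Hexa and Grn share no exonic bases with another gene model.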

How the data were processed

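RNA-seq of 38 libraries and ATAC-seq of 12 were used. The authors trimmed reads with Trimmomatic 0.39, aligned RNA reads with HISAT2 2.2.1 to mm10 (GRCm38) and counted them per gene without regard to strand with HTSeq 0.12.4, and deposited raw counts. The gene annotation used for counting is not given in the sources used here. Gene positions, exon lengths and start sites come from GENCODE vM21, matched by symbol. ATAC-seq reads were aligned by the authors (Bowtie2 2.3.5.1), who called peaks in each library with MACS2 and deposited fold enrichment (a ratio to local background) and −log10 q for each peak. Duplicates were removed, and reads were shifted upstream and extended at peak calling, as is usual for ATAC-seq. Heights were compared only as deposited, with no further scaling for depth. HTSeq tallies that name no gene were left out of library sizes.

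Counts were filtered (filterByExpr, minimum count 10), TMM-normalized and tested with the edgeR 4.0.16 quasi-likelihood test over all genes, with Benjamini-Hochberg adjusted p under 0.05, and for a second count a fold above 2 or below 0.5. The replicate number was no block in the main analysis. Its pairing was checked by the correlation of same-numbered deviations from group means, which exceeded 0.1 in every pair only between young kidney and young liver (0.12, 0.219, 0.104 and 0.452). In the genes of that comparison replicate 2 nevertheless correlated best with number 1. Over the genes of the interaction analysis the same 4 pairs gave 0.08, 0.182, 0.08 and 0.369, so this pairing is uncertain. Young and old libraries carried tallies of multiply mapped reads and DMSO and 3C libraries did not, so these series were not tested against each other. The code was tested on simulated data. For ATAC-seq, the highest peak within 1 kb of a GENCODE start was taken per gene and library. Motifs were searched in 250 bases before RefSeq starts.

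Alternatives were no filter, a mean of at least 1 CPM, RLE size factors, DESeq2 1.42.0, removal of a length and GC trend, the replicate block, the share of reads outside genes as covariate (age only), removal of each library, peaks within 200 bp and −log10 q of at least 5. The members and lists were chosen with earlier results of these data known. All 36 members are named. Values of every library are given for those past the test with a fold above 2 or below 0.5, for up to 4 more by smallest p and, where none passed, for 2 by smallest p. Intervals are SD or SE over libraries.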

Additional observations from a re-analysis of the deposited data

Results flagged for a closer look

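Among 95 groups of 4 libraries examined for a library far from the others, 4 stood out, and chance alone marks about 1 in 20 groups. Ctsw measured 2.12 CPM in replicate 2 of old kidney and 3.401 to 3.65 CPM in the other 3. This is also the library with 3603 CPM of hepatocyte markers, and the part of that in the value was not tested. Ctss measured 58.6 CPM in replicate 2 of 3C kidney and 34.5 to 38.1 CPM in the others. Laptm5 measured 83.3 CPM in replicate 3 of DMSO kidney and 61.9 to 64.3 CPM in the others. Glb1 measured 87.9 CPM in replicate 4 of DMSO kidney and 95.3 to 96.3 CPM in the others, on the scale of the kidney and liver comparison.

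The age effect of Ctss differed between the tissues by the interaction term, at -1.84 on the log2 scale for liver minus kidney (edgeR adjusted p = 0.0249). With the replicate number as a block the adjusted p was 0.0679.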

How the results depend on the processing

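Of 320 recomputed counts of members, 261 stayed within 1.5 times the reported count and 59 moved. Among single members 1 value reversed, that of Tfeb in DMSO kidney against DMSO liver, which went from 0.92 to -0.032 once a length and GC trend was removed (edgeR adjusted p = 0.786). DESeq2 gave 9 members higher and 2 lower in old kidney (11.1% and 9.56% of all genes), 6 higher in old liver (4.94%), 6 higher in 3C fibroblasts (4.29%), 1 lower in 3C kidney and 1 higher for the age effect in liver over kidney. Removing the length and GC trend gave 6 lower in old kidney, 1 lower in old liver and 3 higher in fibroblasts, and no filter gave 3 higher in fibroblasts. With the share of reads outside genes as covariate 1 member was higher in old liver. Past a fold of 2 or 0.5 the numbers were 3 higher in old kidney, 1 higher in old liver, 0 higher and 1 lower in fibroblasts, 9 lower in young kidney against liver and 6 higher and 9 lower in DMSO kidney against liver. Without replicates 2 and 4 of old kidney together, chosen after seeing the data, 10 were higher and 2 lower. The cause of these shifts was not tested.

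With the replicate number as a block, the counts were 0 higher in old liver, 0 higher and 1 lower in fibroblasts, and 0 lower for the age effect in liver over kidney, where Ctss reached an adjusted p of 0.0679. In old kidney 5 were still higher, with Ctsk in and Hexa out. In kidney and liver of 3C mice every library correlated best with its own number (0.128, 0.194, 0.085 and 0.096), a hint from the data only, and elsewhere this held for some libraries.

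With 1 library left out, members higher ran from 3 to 11 and lower from 0 to 1 in old kidney, higher from 0 to 4 in old liver, higher from 0 to 2 and lower from 1 to 2 in fibroblasts, and lower from 0 to 1 in 3C kidney. They ran from 10 to 11 higher and 15 to 18 lower in young kidney against liver, 11 higher and 15 to 19 lower in DMSO kidney against liver, and 0 to 1 in each direction for the age effect in liver over kidney. Promoter peaks ran from 4 to 10 higher and 0 to 3 lower in old kidney and from 4 to 7 higher and 2 to 5 lower in old liver.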
